A study of Mus musculus with 203 samples.

Results

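The genes described here are 10 genes of lipid-laden macrophages and of emphysema in mouse lung: Mmp12, Ctsk, Spp1, Lpl, Trem2, Msr1, Marco, Gpnmb, Atp6v0d2 and Cd68. They were chosen by name, not by a measured value, but with earlier results of these data known. Counts of members beside the shares of all genes are therefore a description. All 10 were found among the 43346 gene identifiers of the count table. RNA-seq was carried out on 43 libraries at 3 weeks and 160 at 11 weeks, of blunt-dissected airway and parenchyma from female Balb/C mice whose stated age was 18-20 weeks. Mice received house dust mite extract (HDM), the allergen of an experimental asthma model, or phosphate buffered saline (PBS). Intranasal treatment for 3 weeks gave 21 airway libraries (11 with PBS and 10 with HDM) and 22 of parenchyma (12 and 10). At 11 weeks there were 8 exposures in each tissue, with 10 libraries per group. They combined PBS or HDM with normal air (AIR) or cigarette smoke (CS), with or without dexamethasone (DEX), a glucocorticoid that was given in week 11. In these mice HDM was continued at a lower frequency after the first 3 weeks, and smoke or air was given from week 4 to week 11. The groups are named PBS.AIR, PBS.CS, HDM.AIR and HDM.CS, with .DEX added for treated mice. All 11-week groups used here carried the same strain and sex, and none carried an allele that the labels name. No label states which airway and parenchyma libraries share a mouse, so every library counted as a sample of its own and p-values measure the spread between libraries.

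Macrophages take up surfactant, modified lipoproteins, dead cells and inhaled particles through scavenger receptors and break them down in lysosomes. When uptake exceeds what the lysosome and cholesterol export can handle, lipid droplets fill the cytoplasm and the cell turns foamy, a state long known in the lungs of smokers. Macrophages of this state also secrete proteases that cut elastin, and loss of elastin fibres is the tissue change of emphysema.

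Mmp12 (ENSMUSG00000049723.10, chr9:7344381-7369499, plus strand of GRCm38) encodes macrophage elastase, the metalloprotease whose loss protects mice from smoke-induced emphysema. Ctsk (ENSMUSG00000028111.3, chr3:95499256-95509362, plus strand) encodes cathepsin K, a lysosomal cysteine protease that cuts collagen and elastin and is best known from osteoclasts. Spp1 (ENSMUSG00000029304.10, chr5:104435118-104441050, plus strand) encodes osteopontin, a secreted ligand of integrins and Cd44. Lpl (ENSMUSG00000015568.11, chr8:68880491-68907448, plus strand) encodes lipoprotein lipase, which frees fatty acids from triglyceride-rich lipoproteins. Trem2 (ENSMUSG00000023992.10, chr17:48346401-48354147, plus strand) encodes a lipid-sensing receptor that signals through the adaptor Tyrobp. Msr1 (ENSMUSG00000025044.11, chr8:39581685-39642673, minus strand) and Marco (ENSMUSG00000026390.3, chr1:120474538-120505024, minus strand) encode class A scavenger receptors, which bind modified lipoproteins, bacteria and particles. Gpnmb (ENSMUSG00000029816.8, chr6:49036546-49070929, plus strand) encodes a transmembrane glycoprotein of late endosomes and lysosomes. Atp6v0d2 (ENSMUSG00000028238.6, chr4:19876841-19922605, minus strand) encodes a subunit of the proton pump that acidifies lysosomes, and Cd68 (ENSMUSG00000018774.9, chr11:69664213-69666153, minus strand) encodes a heavily glycosylated lysosomal membrane protein. All are annotated as protein-coding genes, and reads over their exons were counted.

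Promoter windows of 7 members were found in RefSeq on GRCm38.p6. Those of Atp6v0d2, Msr1 and Lpl were not analysed here. Windows of 300 bases, 250 before and 50 after a start site, were searched on both strands for short motifs of factors known from myeloid and lysosomal genes. These were the PU.1 core GAGGAAGT, the AP-1 site TGANTCA, the M-box TCATGTG and the CLEAR core TCACGTG, none of which contains another. The 150 bases before the start site are shown for the members whose windows held a match, where it lay in this stretch, and for Marco, whose levels differed most from those of the others. Each is printed 5′ to 3′ on the strand of its gene, with matched letters in capitals.
Spp1, chr5:104434961-104435110: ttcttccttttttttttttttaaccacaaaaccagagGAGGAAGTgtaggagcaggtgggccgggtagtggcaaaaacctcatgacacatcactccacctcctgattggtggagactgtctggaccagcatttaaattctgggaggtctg
Mmp12, first start site, chr9:7344247-7344396: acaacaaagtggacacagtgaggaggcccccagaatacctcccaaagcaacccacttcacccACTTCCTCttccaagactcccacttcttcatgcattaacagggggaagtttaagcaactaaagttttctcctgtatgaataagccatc
Mmp12, start site within the gene, chr9:7347224-7347373: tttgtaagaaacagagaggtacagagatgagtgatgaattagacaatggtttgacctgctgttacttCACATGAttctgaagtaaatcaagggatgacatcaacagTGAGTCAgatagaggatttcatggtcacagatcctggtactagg
Cd68, chr11:69666171-69666320: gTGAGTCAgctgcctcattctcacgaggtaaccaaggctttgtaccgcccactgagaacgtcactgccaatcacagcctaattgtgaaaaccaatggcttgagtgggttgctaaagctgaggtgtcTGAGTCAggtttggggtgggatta
Trem2, chr17:48346251-48346400: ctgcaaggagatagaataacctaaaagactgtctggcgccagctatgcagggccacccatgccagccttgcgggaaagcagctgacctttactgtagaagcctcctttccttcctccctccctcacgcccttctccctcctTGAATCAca
Marco, chr1:120505025-120505174: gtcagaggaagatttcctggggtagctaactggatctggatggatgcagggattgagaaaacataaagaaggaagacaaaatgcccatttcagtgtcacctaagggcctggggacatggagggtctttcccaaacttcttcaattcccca

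The PU.1 core lay before the Spp1 start site and, on the minus strand, before the first Mmp12 start site. Of all 32851 promoter windows of the same length, 3.2% held it. The AP-1 site, held by 7.81% of all windows, lay in the windows of Cd68, Trem2, Mmp12 and Gpnmb, in Gpnmb after the start site. The M-box, held by 3.77% of all windows, lay in the window of the start site within Mmp12, and the CLEAR core, also held by 3.77%, in none of the members' windows. A match describes the letters of a window only.

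Estimated counts per library summed to 13003154 to 40240733, with a median of 28090684, and the lowest count of any member in any library was 69, for Marco. Levels are given as CPM, counts scaled to the TMM-normalised library size, as mean ± SD over libraries. None of 10 macrophage marker genes had a mean of 0 in any group. Airway libraries also carried adipocyte and cardiac muscle RNA. In PBS.AIR airway the 7 adipocyte markers summed to 461 CPM (range 211 to 985) and the 7 cardiac muscle markers to 1642 CPM (range 305 to 3334), against 52.4 CPM and 36.95 CPM in PBS.AIR parenchyma. In HDM.AIR airway they summed to 93.03 CPM and 259 CPM. Fat and cardiac muscle express Lpl, and their part in the airway values was not tested. The melanocyte markers, which matter because melanocytes express Gpnmb, summed to group means from 0.951 to 2.81 CPM. Replicate 7 of PBS.AIR parenchyma was the highest of its group for 6 members by a wide gap, and replicate 4 of 3-week HDM airway the lowest for 8 members, 3 of them by a wide gap, so results that change without them are also given that way. In such bulk tissue, fewer cells of a type and less RNA per cell cannot be told apart.

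The members differed in baseline level and in how far they ranged. Per kilobase of exon, with all annotated exons of a gene merged, Spp1 led in PBS.AIR parenchyma with 65.7 CPM per kb, followed by Ctsk with 51.6 and Cd68 with 39.6. Trem2 was lowest on this scale with 1.30 CPM per kb, next to Msr1 with 1.78. The merged exons, 4946 bases for Trem2 and 6344 for Msr1, can be longer than the transcripts present. The order of the members by this scale therefore depends on the annotation. Over all 20 groups, the highest group mean of Mmp12 was 144.5 times its lowest, that of Spp1 58.5 times, that of Gpnmb 41.9 times and that of Lpl only 3.94 times. Ranked by mean level, most neighbouring groups did not differ by more than the larger of their SDs. Of the 19 steps between neighbours, Mmp12 and Msr1 each had 4 steps beyond it, and Atp6v0d2, Cd68, Ctsk, Marco and Spp1 1 step each.

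**Figure D1:**
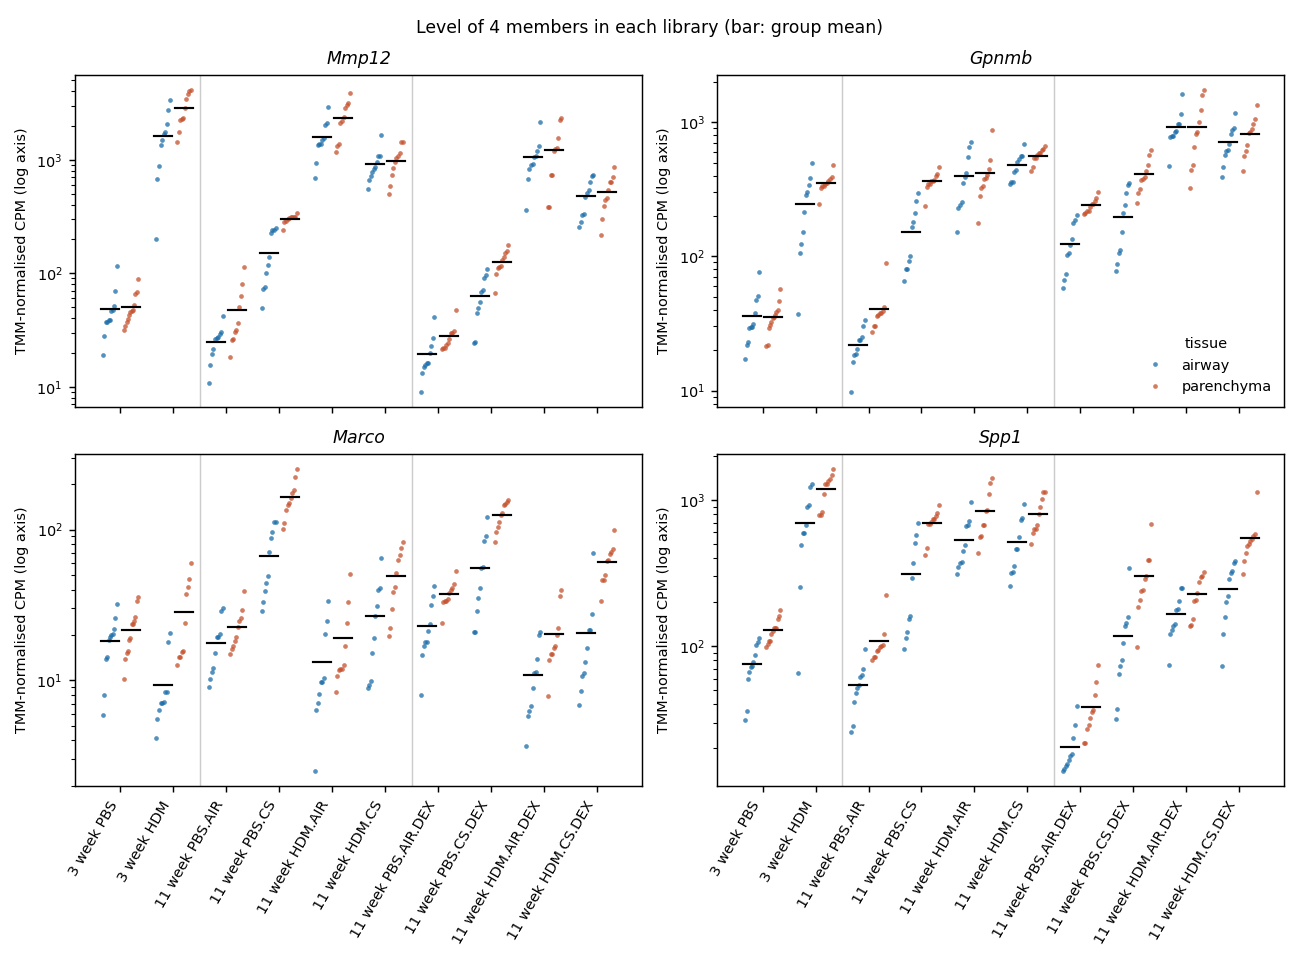
Levels of Mmp12, Gpnmb, Marco and Spp1 in all libraries as TMM-normalised CPM on a log axis, by group on the horizontal axis and by tissue in colour, with a bar at each group mean and the libraries of a group ordered by level. Mmp12 rose furthest with HDM (2345 CPM in HDM.AIR parenchyma against 47.7 CPM in PBS.AIR), Marco was highest in PBS.CS parenchyma (163.5 CPM), Gpnmb in HDM with dexamethasone (922 CPM in airway), and Spp1 was lowest with dexamethasone alone (20.3 CPM in airway).

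The first comparison asked which members changed with HDM alone. After 11 weeks, 9 of 10 members were called higher in parenchyma, at an adjusted p under 0.05 and a log2 fold change (log2FC) of at least 1 in limma-voom, where 13% of all 18250 genes were called higher. All HDM.AIR libraries lay above all PBS.AIR libraries for these 9 members, a separation that 11.8% of all genes showed in this direction. In airway, 8 of 10 were called higher, against 10.6% of all genes, and the same 8 showed no overlap, against 10.5% of all genes. The median log2FC of the 10 members was 3.06 in parenchyma and 3.05 in airway, while that of all genes was 0.047 and 0.004.

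Mmp12, the elastase, moved furthest. In parenchyma its level ran from 18.2 to 114.1 CPM in PBS.AIR (median 34.2) and from 1173 to 3898 CPM in HDM.AIR (median 2265). The groups were far apart, and the fold change was 56.03 (log2FC 5.81 ± 0.30 SE, limma adjusted p = 8.11e-40). In airway it ran from 10.8 to 41.99 CPM in PBS.AIR (median 26.7) and from 691 to 2890 CPM in HDM.AIR (median 1446), 64.2-fold higher (log2FC 6.01 ± 0.30, limma adjusted p = 2.16e-41). Ctsk, the other protease, rose 8.79-fold in parenchyma, from 78.02 ± 28 (SD, n = 10) to 654 ± 196.6 CPM, and 6.93-fold in airway. Spp1 rose from 108.3 ± 42.3 to 839 ± 331 CPM in parenchyma, 7.95-fold, and 10.1-fold in airway.

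Among the receptors, Trem2 and Msr1 rose while Marco did not. Trem2 ran from 3.97 to 17.6 CPM in PBS.AIR parenchyma (median 5.17) and from 48.3 to 112.9 CPM in HDM.AIR parenchyma (median 80.6), 14.0-fold higher (log2FC 3.81 ± 0.24, limma adjusted p = 2.98e-31). Msr1 rose 12.6-fold in parenchyma and 9.36-fold in airway. Marco was 22.7 ± 7.33 CPM in PBS.AIR parenchyma and 19.2 ± 13.3 CPM in HDM.AIR parenchyma, with overlapping libraries (log2FC −0.35, 95% interval −1.001 to 0.30, limma adjusted p = 0.365). In airway its log2FC was −0.60 (interval −1.33 to 0.12, limma adjusted p = 0.145). The 2 class A scavenger receptors thus had log2FC values with no overlap of their intervals in either tissue. Of the lysosomal members, Gpnmb rose 10.5-fold, Cd68 6.19-fold and Atp6v0d2 3.77-fold in parenchyma, and 17.2-fold, 7.34-fold and 6.48-fold in airway. Lpl rose 2.93-fold in parenchyma (log2FC 1.55 ± 0.17, limma adjusted p = 2.01e-14), whereas its log2FC of 0.62 in airway passed the adjusted p (0.00116, limma) but not the fold threshold.

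After 3 weeks of HDM, 9 members were called higher in parenchyma (14.5% of 17381 genes) and 8 in airway (12.1%), and Marco was called lower in airway, as were 11.8% of all genes. The HDM libraries lay above all PBS libraries for 9 members in parenchyma (20.3% of all genes) and for Mmp12, Trem2 and Msr1 in airway (11.7%). Without replicate 4 of HDM airway, 8 members showed this in airway, as did 14.3% of all genes. In parenchyma, Mmp12 rose from 50.1 ± 16.8 CPM (n = 12) to 2833 ± 971 CPM (n = 10), 53.4-fold, and Msr1 from 12.8 ± 3.11 to 228 ± 21.05 CPM, 17.3-fold. That was the highest group mean of Msr1, and it differed from the next by more than their SDs. Marco in airway ran from 5.91 to 32.2 CPM with PBS (median 19.4) and from 4.18 to 20.8 CPM with HDM (median 7.17), so the groups overlapped. Its log2FC was −1.04 ± 0.33 (limma adjusted p = 0.00498). It was −0.98 with DESeq2 and −0.98 with no filter, both short of the fold threshold, and −0.96 without replicate 4 of HDM airway, with an adjusted p of 0.0113. That library carried 15.2 CPM of Trem2, where the others ran from 40.8 to 87.7 CPM.

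The size of the HDM effect was compared between the weeks as a difference of log2FC values, in which exposure time, dosing schedule and cohort of mice cannot be told apart. In parenchyma no member differed at an adjusted p under 0.05 in limma, where 21.5% of 18528 genes had a larger and 20.9% a smaller log2FC at 11 weeks, and no member had an unadjusted p under 0.05. The edgeR and DESeq2 tests called none either. With sample quality weights, Msr1 passed (difference −0.61, limma adjusted p = 0.0446). In airway 5 members had a larger log2FC at 11 weeks (14.5% of all genes), namely Gpnmb (difference 1.49, limma adjusted p = 4.46e-04), Trem2 (difference 1.29), Mmp12 (difference 1.07, adjusted p = 0.0398), Ctsk (difference 0.94) and Cd68 (difference 0.65, adjusted p = 0.0406). Without replicate 4 of 3-week HDM airway, Mmp12 (0.79, limma adjusted p = 0.143) and Cd68 (0.47, adjusted p = 0.137) no longer passed, while the other 3 did. Neither passed with edgeR, DESeq2, no filter on low counts or sample quality weights, with adjusted p from 0.0545 to 0.133.

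With cigarette smoke alone, 10 of 10 members were called higher in parenchyma, Marco among them, against 4.21% of all genes, and for each of them all 10 PBS.CS libraries lay above all 10 PBS.AIR libraries, as did those of 5.16% of all genes. The median log2FC was 2.80, against 0.00 over all genes. In airway 9 of 10 were called higher (1.73% of all genes) and 6 showed no overlap (0.647% of all genes), with a median log2FC of 1.90.

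Gpnmb rose most in parenchyma, from a range of 27.3 to 89.6 CPM (median 37.1) to one of 237 to 462 CPM (median 364). The change was 9.45-fold (log2FC 3.24 ± 0.23, limma adjusted p = 3.07e-25). Ctsk rose 7.80-fold, from 78.02 ± 28 to 584 ± 80.4 CPM. Mmp12 rose 7.45-fold, to a narrow range of 239 to 342 CPM (median 310), far below its level in HDM.AIR. Marco, which had not risen with HDM, ran from 15.0 to 38.95 CPM in PBS.AIR parenchyma (median 20.9) and from 100 to 252 CPM in PBS.CS parenchyma (median 155.7). No libraries overlapped, and the change was 7.31-fold (log2FC 2.87 ± 0.31, limma adjusted p = 1.18e-14).

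Msr1 rose 7.39-fold, Spp1 6.62-fold, Trem2 6.20-fold, Cd68 4.11-fold and Atp6v0d2 3.63-fold in parenchyma. Lpl rose least, 2.12-fold, from 218 ± 43.4 to 452 ± 60.7 CPM (limma adjusted p = 6.56e-08). In airway the folds ran from 2.48 for Cd68 to 6.34 for Gpnmb, and Lpl did not pass (log2FC 0.44, interval 0.10 to 0.78, limma adjusted p = 0.0756). Lpl was spread from 189.3 to 493.04 CPM in PBS.AIR airway, where the adipocyte and cardiac muscle markers were spread widely too. Without replicate 7 of PBS.AIR parenchyma, the smoke effects in parenchyma ran from 1.13 for Lpl to 3.37 for Gpnmb, and all 10 members kept their call. The test of the difference between tissues was passed by 1 member, Ctsk, whose log2FC was smaller in airway (difference −1.25, limma adjusted p = 0.00403, where 3.04% of all genes were lower). Msr1 (difference −0.92, adjusted p = 0.0591) and Cd68 (−0.73, adjusted p = 0.0549) lay just outside. Both passed without replicate 7 of PBS.AIR parenchyma (adjusted p = 0.036 and 0.0277) and without replicate 5 of PBS.CS parenchyma (adjusted p = 0.0354 and 0.0476), and Msr1 without replicate 8 of PBS.CS parenchyma (adjusted p = 0.0482). These tests counted every library as a sample of its own. When airway and parenchyma libraries with neighbouring codes formed a block, Ctsk, Msr1, Cd68, Lpl and Marco all passed (limma adjusted p up to 0.0469). That block is described in the last section.

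Markers of macrophages and of other leukocytes also moved. Of the 10 macrophage marker genes, 4 were called higher and none lower with smoke in parenchyma (median log2FC 0.82) and 7 with HDM at 11 weeks (median 1.81). The shares of all genes called higher were 4.21% with smoke and 13% with HDM. The summed level was 7861 CPM in PBS.AIR parenchyma (range 6271 to 10307), 13396 CPM in PBS.CS (range 10588 to 20393) and 17838 CPM in HDM.AIR (range 12656 to 21073). Most of each sum was Lyz2, a lysozyme gene, with group means of 7459, 12720 and 16840 CPM. The sums therefore follow mainly this 1 gene and are no measure of macrophage number. Alveolar macrophage markers split, with 3 of 10 higher and 2 lower with smoke in parenchyma. Neutrophil markers were called higher in 5 of 8 genes with smoke and 6 of 8 with HDM. The part of these cells in the members' values was not tested.

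HDM.AIR and PBS.CS were then set against each other directly, a comparison added after the data had been seen. In parenchyma, Mmp12 was 7.53-fold higher with HDM (log2FC 2.91 ± 0.31, limma adjusted p = 4.09e-15) and Trem2 2.26-fold higher, 2 members called higher where 8.13% of all genes were. For Mmp12 the groups did not overlap, as held for 6.16% of all genes. Marco was 9.32-fold lower with HDM (log2FC −3.22 ± 0.32, limma adjusted p = 7.92e-17), as 2.79% of all genes were called lower, and its highest HDM.AIR library, at 50.6 CPM, lay below its lowest PBS.CS library, at 100.4 CPM, a separation that 3.54% of all genes showed. Msr1, Cd68 and Lpl were higher with HDM by 0.77, 0.59 and 0.47 on the log2 scale, which passed the adjusted p but not the fold threshold. The differences of Gpnmb (0.14, interval −0.35 to 0.64), Ctsk (0.17, interval −0.28 to 0.62), Atp6v0d2 (0.06, interval −0.41 to 0.52) and Spp1 (0.26, interval −0.37 to 0.90) did not pass. In airway 8 members were called higher with HDM (7.7% of all genes), from Spp1 at 2.10-fold to Mmp12 at 11.6-fold, and Marco was 5.55-fold lower (5.78% of all genes). No libraries overlapped there for Mmp12, Trem2 and Cd68 (7.34% of all genes). With edgeR, DESeq2 and sample quality weights, Ctsk and Spp1 in airway fell short of the fold threshold. With those weights Spp1 also missed the adjusted p (0.0976) and Msr1 had a log2FC of 0.998.

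**Figure D2:**
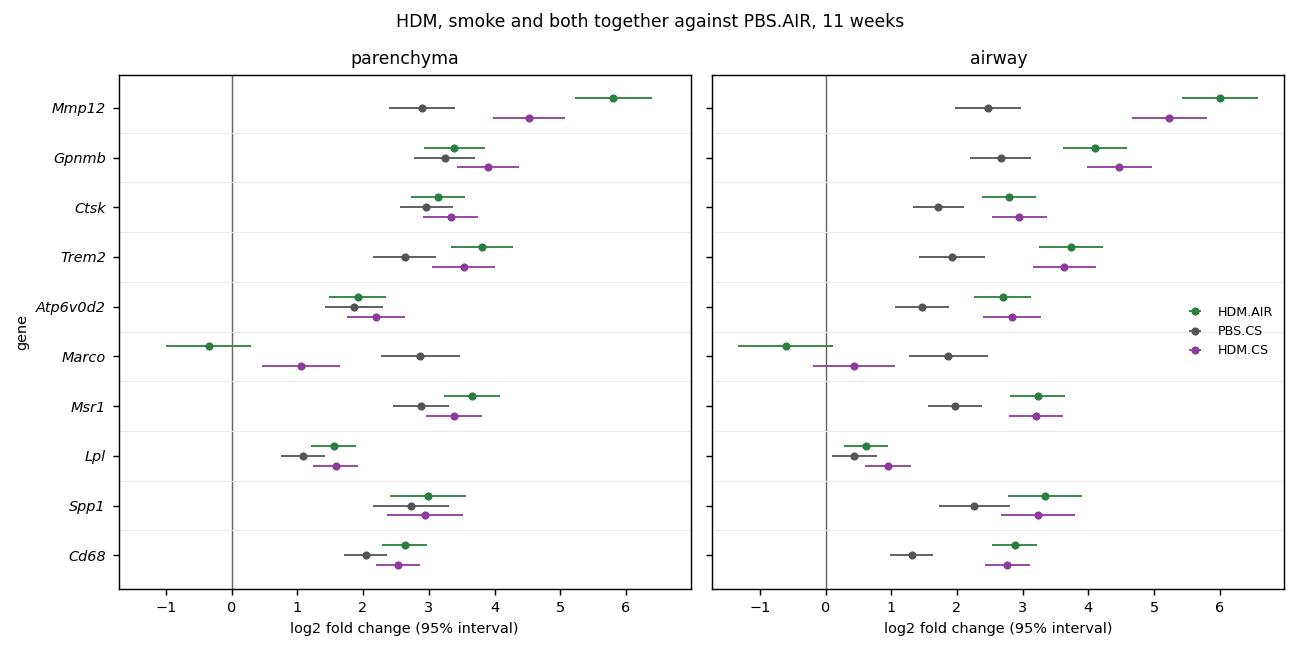
log2FC of each member with its 95% interval against PBS.AIR at 11 weeks, for HDM.AIR, PBS.CS and HDM.CS, in parenchyma and airway. Mmp12 with HDM lay far to the right of Mmp12 with smoke (5.81 against 2.90 in parenchyma), Marco showed the opposite order (−0.35 against 2.87), and the points of HDM.CS lay near those of HDM.AIR for most genes.

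The groups that received both exposures address the overlap of asthma and smoke-induced disease. With HDM and smoke together, 10 members were called higher than in PBS.AIR in parenchyma (8.67% of all genes) and 8 in airway (7.33%). No libraries overlapped for 9 members in parenchyma (9.19% of all genes) and 8 in airway (6.56%). The effects did not add up on the log2 scale. In parenchyma all 10 members had a combined log2FC below the sum of the separate ones at an adjusted p under 0.05, as 18.7% of all genes did, from −1.05 for Lpl to −4.17 for Mmp12 (limma adjusted p = 8.15e-16). In airway 8 did (11.4% of all genes), all but Lpl (−0.10, adjusted p = 0.829) and Marco (−0.83, adjusted p = 0.21).

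When smoke was added to HDM, Mmp12 and Marco were the members called in parenchyma, in opposite directions. Mmp12 fell 2.42-fold, from 2345 ± 899 to 973 ± 318 CPM (log2FC −1.28 ± 0.32, limma adjusted p = 0.00141), 1 member called lower where 3.46% of all genes were. Of the 10 HDM.CS libraries, 8 lay below all HDM.AIR libraries. Marco rose 2.64-fold, from 19.2 ± 13.3 to 49.2 ± 22.3 CPM (limma adjusted p = 2.39e-04), 1 member called higher where 0.899% of all genes were, with 5 libraries above all those of HDM.AIR. The other 8 members had log2FC values from −0.28 for Trem2 to 0.51 for Gpnmb, and none passed. In airway Marco alone was called, 2.05-fold higher (limma adjusted p = 0.0295, where 0.674% of all genes were higher). With edgeR and DESeq2 its log2FC of 0.98 fell just short of the fold threshold.

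When HDM was added to smoke, Marco fell. In parenchyma it went from 163.5 ± 47.4 CPM in PBS.CS to 49.2 ± 22.3 CPM in HDM.CS, 3.54-fold lower (limma adjusted p = 3.09e-07), and all HDM.CS libraries lay below all PBS.CS libraries, as did those of 0.241% of all genes. Of all genes, 0.225% were called lower. Mmp12 rose 3.10-fold to 973 CPM (2.71% of all genes were called higher), with no overlap of libraries (2.34% of all genes). Trem2 rose by 0.90 and Msr1 by 0.50 on the log2 scale, past the adjusted p but not the fold threshold. In airway 7 members were called higher (3.9% of all genes), Mmp12 most with 6.76-fold, and Marco was 2.71-fold lower (2.5% of all genes). Mmp12, Gpnmb, Trem2 and Cd68 showed no overlap there (2.58% of all genes). With sample quality weights, Ctsk in airway fell short of the fold threshold (log2FC 0.98).

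Dexamethasone divided the members. Given alone, to PBS.AIR mice, it went with higher Gpnmb, Ctsk, Atp6v0d2 and Cd68 in parenchyma and with lower Spp1. These 4 members were called higher where 1.02% of all genes were, and 1 was called lower where 2.14% were. For all 5 the groups did not overlap, as held for 2.14% of all genes in the upward and 2.3% in the downward direction. In airway Gpnmb, Atp6v0d2 and Ctsk were called higher (0.559% of all genes) and Spp1 lower (1.85%), and Gpnmb was the member with no overlap (0.225% of all genes).

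Gpnmb ran from 27.3 to 89.6 CPM in PBS.AIR parenchyma (median 37.1) and from 208 to 300 CPM in PBS.AIR.DEX parenchyma (median 239). The rise was 6.27-fold in parenchyma (log2FC 2.65 ± 0.23, limma adjusted p = 3.19e-18) and 5.41-fold in airway (log2FC 2.44 ± 0.23, limma adjusted p = 1.93e-15). Ctsk rose 3.96-fold, Atp6v0d2 2.52-fold and Cd68 2.29-fold in parenchyma. Spp1 ran from 80.7 to 224 CPM in PBS.AIR parenchyma (median 96.6) and from 21.7 to 74.7 CPM with dexamethasone (median 33.9), 2.91-fold lower (log2FC −1.54 ± 0.26, limma adjusted p = 1.43e-06). In airway it was 2.59-fold lower. The lysosomal members and cathepsin K were thus higher, and the secreted ligand lower, in the same treated libraries.

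Trem2 (log2FC 0.90), Msr1 (0.85) and Lpl (−0.45) passed the adjusted p only with dexamethasone alone in parenchyma. Without replicate 7 of PBS.AIR parenchyma, Trem2 was called higher (log2FC 1.07, limma adjusted p = 0.00237). Mmp12 had a log2FC of −0.60 (interval −1.10 to −0.11, limma adjusted p = 0.069). None of the 10 macrophage markers was called in parenchyma in limma, where 1 passed the adjusted p upward and 3 downward, and their median log2FC was −0.24. Their summed level was 12484 CPM (range 9853 to 14750) against 7861 CPM in PBS.AIR, of which Lyz2 made 12110 and 7459 CPM. The part of these cells in the members' values was not tested.

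In exposed mice fewer members were called higher with dexamethasone. With dexamethasone in HDM.AIR mice, Gpnmb was called higher in parenchyma (log2FC 1.08 ± 0.26, limma adjusted p = 4.91e-04, where 0.619% of all genes were higher) and in airway (log2FC 1.30 ± 0.26, adjusted p = 3.27e-05, 0.789% of all genes). In airway it reached 922 ± 300 CPM, its highest group mean. Spp1 was 3.69-fold lower in parenchyma (adjusted p = 1.51e-07 in limma), from a range of 432 to 1416 CPM (median 755) to one of 136.3 to 321 CPM (median 220), and 3.23-fold lower in airway. In both tissues all treated libraries lay below all untreated ones, as did those of 1.71% of all genes in parenchyma and 2.19% in airway. Mmp12 was 2.11-fold lower in parenchyma (limma adjusted p = 0.0064), so that 2 members were called lower there (5.4% of all genes) and 1 in airway (5.07%).

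The calls of Gpnmb and Mmp12 in parenchyma were close to the threshold. Without replicate 2 of HDM.AIR.DEX parenchyma, the library with the lowest total, the log2FC of Gpnmb was 0.91 (limma adjusted p = 0.00475), and it was 0.95 with sample quality weights. That of Mmp12 was −0.98 with both edgeR and DESeq2. Lpl (−0.54) and Msr1 (−0.45) in parenchyma, and Ctsk (0.62), Atp6v0d2 (0.65) and Cd68 (0.48) in airway, passed the adjusted p but not the fold threshold.

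With dexamethasone in PBS.CS mice, Mmp12 and Spp1 were the members called, both lower, in parenchyma (2.39% of all genes) and in airway (2.3%). Mmp12 in parenchyma ran from 239 to 342 CPM in PBS.CS (median 310) and from 67.4 to 177.1 CPM in PBS.CS.DEX (median 123.4). All treated libraries lay below all untreated ones, as did those of 1.08% of all genes, and the fold was 2.495 (log2FC −1.32 ± 0.26, limma adjusted p = 4.96e-05). Spp1 fell from 694 ± 150 to 302 ± 160 CPM, 2.57-fold (limma adjusted p = 4.20e-04). Lpl (−0.52) and Trem2 (−0.48) passed the adjusted p only. Gpnmb, which had risen with dexamethasone alone, had a log2FC of 0.13 (interval −0.36 to 0.62, limma adjusted p = 0.78), and Marco of −0.38 (interval −0.95 to 0.19, adjusted p = 0.392). In these PBS.CS parenchyma libraries none of the 10 macrophage markers was called with dexamethasone in limma, though 5 passed the adjusted p downward. Of the alveolar macrophage markers 5 of 10 were called lower, and of the T and B cell markers 6 of 6 and 5 of 5. Their part in the fall of Mmp12 and Spp1 was not tested.

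With dexamethasone in HDM.CS mice, no member was called in parenchyma in limma, where 0.115% of all genes were called higher and 1.91% lower. Mmp12 passed the adjusted p there (log2FC −0.95 ± 0.30, adjusted p = 0.0278), and 2 members had an unadjusted p under 0.05, Mmp12 (0.00165) and Lpl (0.0465). The edgeR and DESeq2 tests called none either. In parenchyma Spp1 had a log2FC of −0.60 (interval −1.23 to 0.02). In airway Spp1 was called lower (log2FC −1.12 ± 0.30, limma adjusted p = 0.00534, 1.93% of all genes), and −0.98 with sample quality weights. Spp1 in parenchyma held a library, replicate 8 of HDM.CS.DEX, at 1135 CPM, where the others ran from 310 to 588 CPM.

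**Figure D3:**
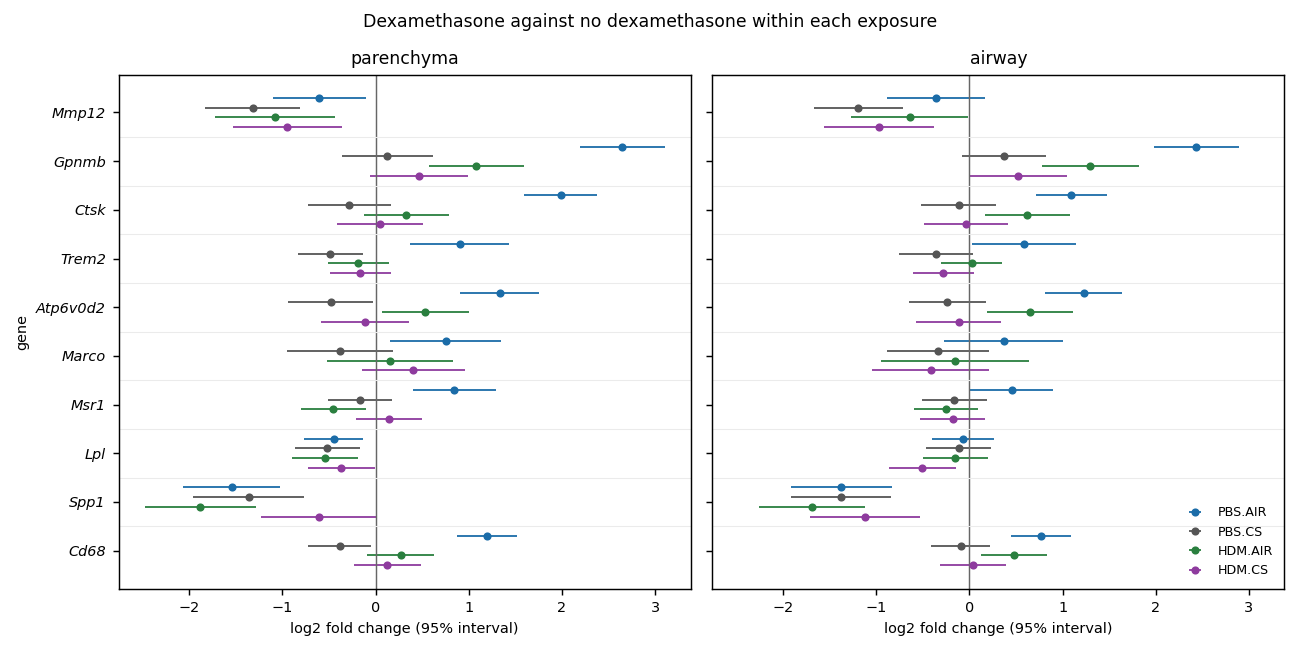
log2FC of each member with dexamethasone against no dexamethasone, with its 95% interval, in PBS.AIR, PBS.CS, HDM.AIR and HDM.CS mice, for parenchyma and airway. Spp1 and Mmp12 lay left of 0 throughout, and the PBS.AIR points of Gpnmb (2.65), Ctsk (1.99) and Cd68 (1.19) in parenchyma lay to the right of those in smoke-exposed mice (0.13, −0.28 and −0.38).

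Whether dexamethasone changed the effect of an exposure was tested as a difference of log2FC values. The smoke effect in parenchyma was smaller with dexamethasone for 6 members (2.25% of all genes), Gpnmb (difference −2.52, limma adjusted p = 2.86e-08), Ctsk (difference −2.27), Atp6v0d2 (difference −1.82), Cd68 (difference −1.58), Trem2 (difference −1.39) and Msr1 (difference −1.01, adjusted p = 0.0248). In airway it was smaller for 3 (0.0603% of all genes, 11 genes), Gpnmb (difference −2.07), Atp6v0d2 (difference −1.47) and Ctsk (difference −1.21, adjusted p = 0.0392). With no filter on low counts, Ctsk in airway (adjusted p = 0.202) and Msr1 in parenchyma (adjusted p = 0.0632) no longer passed, nor did Msr1 without replicate 9 of PBS.CS.DEX parenchyma (adjusted p = 0.0625). Gpnmb in parenchyma was 241 ± 29.7 CPM in PBS.AIR.DEX and 411 ± 117.7 CPM in PBS.CS.DEX, against 40.6 ± 17.8 and 363 ± 59 CPM without dexamethasone. The drug went with a higher level in mice without smoke. In mice with smoke, the treated mean lay within the range of the untreated libraries, with a wider spread and single libraries above that range.

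For the HDM effect in parenchyma, 5 members differed (6.4% of all genes), Ctsk (difference −1.66, limma adjusted p = 6.52e-05), Gpnmb (difference −1.57), Msr1 (difference −1.30), Trem2 (difference −1.09) and Cd68 (difference −0.92). In airway Gpnmb did (difference −1.14, limma adjusted p = 0.0363, 3.52% of all genes). With no filter on low counts (adjusted p = 0.0933) and with all libraries in one fit (adjusted p = 0.0672), it no longer passed. The differences of Spp1 were 0.18 (interval −0.61 to 0.97) for smoke and −0.34 (interval −1.13 to 0.45) for HDM in parenchyma, and did not pass.

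Among treated mice, smoke was still accompanied by higher levels of 6 members in parenchyma (1.97% of all genes) and 4 in airway (0.641%), and HDM by higher levels of 9 (8.54%) and 8 (7.96%). For smoke no libraries overlapped for 6 members in parenchyma (1.61% of all genes) and for Msr1 in airway (0.301%), and for HDM for 8 in each tissue (7.16% and 6.63%). Spp1 was 7.51-fold higher in PBS.CS.DEX than in PBS.AIR.DEX parenchyma and Marco 3.33-fold higher, both without overlap of libraries. Lpl, at 2.02-fold, was close to the threshold (log2FC 0.97 without replicate 9 of PBS.CS.DEX parenchyma and 0.92 with sample quality weights). Atp6v0d2 was 232 ± 49.02 against 219 ± 23.4 CPM (log2FC 0.05, interval −0.40 to 0.49). Marco was lower in HDM.AIR.DEX than in PBS.AIR.DEX airway (log2FC −1.13, limma adjusted p = 0.0058, called lower with 6.24% of all genes), and in parenchyma its log2FC of −0.95 passed the adjusted p alone.

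Between the compartments, Atp6v0d2 was the member called at baseline. It was lower in airway in PBS mice at 3 weeks (2.01-fold, limma adjusted p = 0.00124, where 1.91% of all genes were called lower) and in PBS.AIR mice at 11 weeks (2.21-fold, adjusted p = 6.94e-07, 2.71% of all genes). Past the adjusted p alone in PBS.AIR mice, Spp1 (log2FC −0.997), Gpnmb (−0.82), Mmp12 (−0.76) and Cd68 (−0.49) were lower in airway and Lpl higher (0.40), and in 3-week PBS mice Spp1 was lower (−0.85). With all libraries in one fit, Spp1 was called in PBS.AIR mice (log2FC −1.03). The 3-week call of Atp6v0d2 had a log2FC of −1.01, which fell short of the fold threshold under 6 of 7 other ways of processing, at −0.72 to −0.98. After smoke, 7 members were called lower in airway (1.12% of all genes), from Mmp12 at 2.27-fold to Atp6v0d2 at 2.92-fold. Atp6v0d2 and Cd68 showed no overlap between the tissues there (2.6% of all genes). Mmp12 fell short of the fold threshold with edgeR (−0.98), DESeq2 (−0.96) and sample quality weights (−0.89), and Cd68 with those weights (−0.98). The HDM effect at 3 weeks was smaller in airway for 5 members (6.45% of all genes), Marco (difference −1.20, limma adjusted p = 0.0481), Ctsk (difference −1.03), Trem2 (difference −0.86), Lpl (difference −0.85) and Msr1 (difference −0.78). Marco missed the adjusted p in limma without replicate 4 of HDM airway (0.0533), with no filter on low counts (0.0535) and with all libraries in one fit (0.063), and Msr1 with sample quality weights (0.0829). Cd68 (difference −0.73, adjusted p = 0.0713) passed under 3 of the alternatives, and with neighbouring library codes as a block (limma adjusted p = 0.0468). At 11 weeks it was smaller in airway for Lpl (difference −0.93, limma adjusted p = 0.00211, 14.9% of all genes) and larger for Atp6v0d2 (difference 0.78, adjusted p = 0.0472, 12.7%), the latter no longer without replicate 7 of PBS.AIR parenchyma (0.71, adjusted p = 0.0767). Atp6v0d2 also missed the threshold with edgeR, DESeq2, no filter on low counts, sample quality weights and all libraries in one fit (adjusted p from 0.0573 to 0.0789). With neighbouring library codes as a block it passed (limma adjusted p = 0.0137), as did Gpnmb, with a larger log2FC in airway (difference 0.71, adjusted p = 0.035). The summed adipocyte and cardiac muscle markers were higher in PBS.AIR airway than in PBS.AIR parenchyma or HDM.AIR airway. Their part in the Lpl differences between the tissues was not tested.

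**Figure D4:**
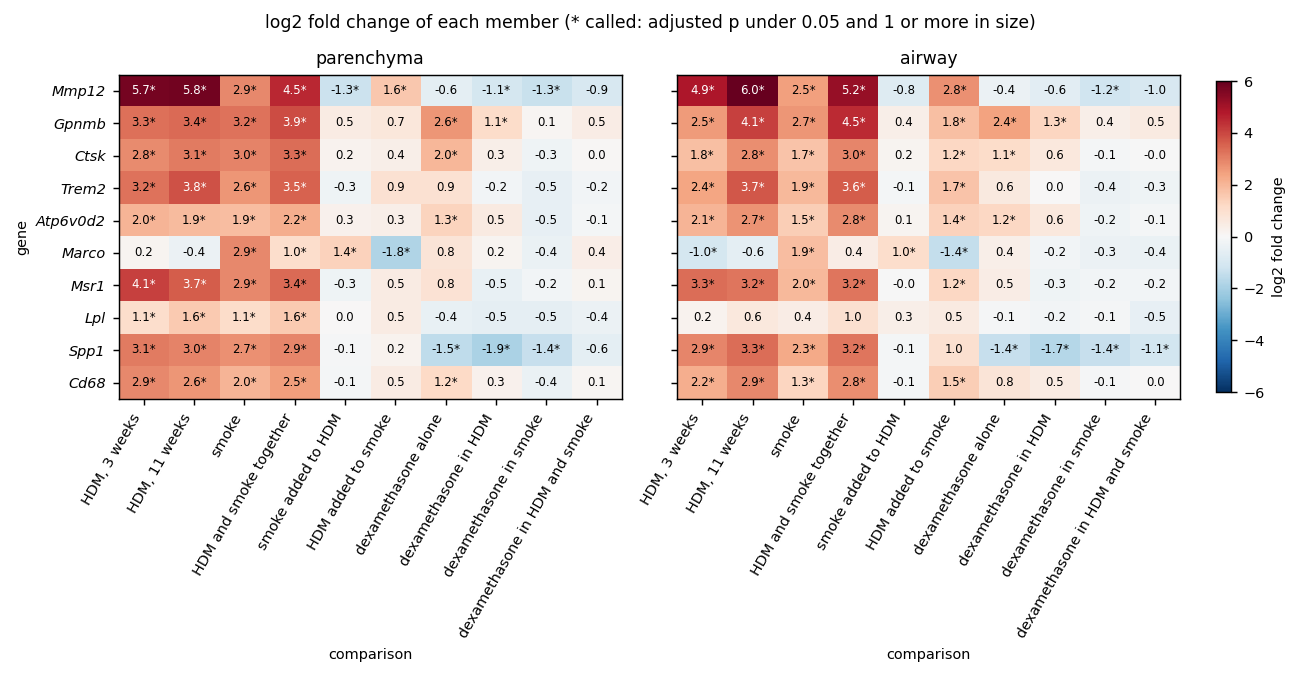
log2FC of the 10 members (rows) in 10 comparisons (columns) in parenchyma and airway, in colour and as a number, with a star where the member was called. The smoke column is red in all rows in parenchyma, Marco is near 0 or below it in the columns of HDM alone, and Spp1 and Mmp12 are blue in the dexamethasone columns.

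The wider pathways were described from gene lists with the members left out. Of all genes, 4.21% were called higher with smoke and 13% with HDM at 11 weeks in parenchyma. Of 40 genes of the proton pump and lysosome, 7 were called higher with smoke and 16 with HDM, none lower, with median log2FC values of 0.51 and 0.72. Ctsd, the main aspartic protease of the lysosome, went from 812 ± 146.2 to 2851 ± 340 CPM with smoke. With HDM, Psap, the precursor of the saposins that assist lipid breakdown, went from 965 ± 160 to 4825 ± 1244 CPM. With dexamethasone alone in parenchyma, 1 of these 40 genes was called higher (median log2FC 0.20), where 1.02% of all genes were.

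Of 21 lipid handling genes, 3 were called higher with smoke and 4 higher and 1 lower with HDM in parenchyma. Fabp5, a fatty acid carrier, rose from 93.01 ± 24.7 to 268 ± 55.6 CPM with smoke and Lgals3, a galectin of macrophages, from 202.3 ± 37.7 to 599.5 ± 123.8 CPM. Apoe, a lipid carrier secreted by macrophages, rose to 1234 ± 354 CPM with HDM, from 306 ± 41.2 CPM. Hilpda, a lipid droplet protein, fell from 120 ± 16.5 to 33.9 ± 14.1 CPM with HDM. The 12 tested genes listed with Lpl, its partners and related lipases, moved both ways with HDM in parenchyma. Lipc rose from 0.21 ± 0.12 to 2.73 ± 0.76 CPM and Apoc2 from 0.72 ± 0.16 to 2.87 ± 1.32 CPM, both at low levels. Gpihbp1, which holds the lipase at the capillary wall, fell from 178.9 ± 40.4 to 60.9 ± 24.6 CPM, and Lipg from 35.6 ± 4.52 to 13.0 ± 4.37 CPM. The 6 endothelial markers were all called lower too, and their part in these values was not tested.

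Of 11 tested elastolytic and matrix proteases, 4 were called higher with smoke and 8 with HDM. Adam8, a membrane protease of leukocytes, rose from 12.7 ± 3.33 CPM to 43.6 ± 10.2 CPM with smoke and to 146.9 ± 51.4 CPM with HDM. Of 16 protease inhibitors, 4 were called higher with smoke, and 7 higher and 1 lower with HDM. Timp1, an inhibitor of metalloproteases, went from 5.46 ± 3.20 to 15.4 ± 4.01 CPM with smoke, and Slpi, an inhibitor of neutrophil elastase, from 45.1 ± 16.7 to 1788 ± 821 CPM with HDM.

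Of 12 genes of Trem2 and Tyrobp signalling, 3 were called higher with smoke and 8 with HDM. Tyrobp itself rose from 92.5 ± 14.6 CPM to 190 ± 45.2 CPM with smoke and to 269 ± 46.1 CPM with HDM. Among 16 other scavenger receptors, 2 were called higher with smoke, Olr1 and Clec7a, and 4 higher and 2 lower with HDM. Of 10 osteopontin receptors, Cd44 rose with smoke, from 217 ± 16.0 to 461 ± 46.96 CPM. With HDM, Cd44 rose to 516 ± 74.3 CPM and Itga4 from 56.6 ± 6.27 to 110 ± 25.2 CPM. Itga8 fell with HDM, from 274 ± 39.5 to 83.3 ± 27.7 CPM. Of 16 tested genes of osteoclast differentiation, 6 rose with smoke and 8 with HDM, with Dcstamp, a cell fusion protein, at 0.52 ± 0.41 CPM in PBS.AIR and 23.6 ± 14.4 CPM in HDM.AIR parenchyma. With smoke, Csf2, the growth factor of alveolar macrophages, rose from 3.76 ± 0.80 to 16.0 ± 2.28 CPM.

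Likeness of pattern was measured as Pearson's r over the 20 group means of log2 CPM, for 17303 genes. The points share libraries and exposures, so these values are a description. Among the members, Mmp12 and Trem2 (r = 0.968), Msr1 and Trem2 (r = 0.970), Gpnmb and Ctsk (r = 0.978) and Ctsk and Cd68 (r = 0.979) had the highest r. Marco had r values from −0.219 with Mmp12 to 0.160 with Ctsk. The gene with the pattern closest to Mmp12 was P2ry6 (r = 0.987), to Gpnmb Ctsd (0.979), to Ctsk Stra6l (0.989) and to Trem2 Clec4d (0.988). For Atp6v0d2 it was Fabp5 (r = 0.988), for Msr1 Slc38a6 (0.988) and for Cd68 Pld3 (0.995). The members whose nearest gene was less close were Spp1, with Fcer2a (r = 0.946), Marco, with Lipf (0.917), and Lpl, with Taldo1 (0.894).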

How the data were processed

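Per the study's methods, the authors made single-end reads of 100 bp and deposited 1 table of estimated counts per gene, not normalised for depth or length. The submitters' processing notes name STAR 2.5.1b, RSEM 1.2.31, kallisto 0.44.0 and mm10. Which quantifier made the table is not given in the sources used here, and 20.3% of non-zero values were not whole, so the expected counts were rounded. Symbols and coordinates came from GENCODE M21 (GRCm38), matched on the identifier without its version for 42462 of 43346 identifiers. After TMM scaling (edgeR 4.0.16), limma 3.58.1 (R 4.3.3) fitted voom models with 1 mean per group, following the study's method, to the 43 libraries at 3 weeks (17381 genes) and the 160 at 11 weeks (18250 genes). A joint model of all libraries (18528 genes) served only for the difference between weeks. A gene was kept if 9 or more libraries reached the CPM that 10 counts make in the median library, and p-values were Benjamini-Hochberg adjusted over all genes. Effects were called at an adjusted p under 0.05 with a log2FC of at least 1 in size, differences of effects at the adjusted p alone. Levels are TMM-normalised CPM over all libraries, and CPM per kb uses the merged length of all annotated exons of a gene. Within each group every pair of libraries differed by more than sampling noise. Scripts were tested on simulated data. Members and lists were chosen with earlier results of these data known. The genes named are all members, up to 2 called genes per direction and pathway list with smoke and with HDM at 11 weeks in parenchyma, and the genes most like each member. Lyz2 was named after its values were seen. Other ways of processing were the quasi-likelihood test of edgeR, the Wald test of DESeq2 1.42.0, DESeq2 size factors, no filter, a CPM of at least 10 in 9 libraries, sample quality weights and all libraries in one fit. The comparison of HDM with smoke, the omission of 9 single libraries and, for the tissues, a block of neighbouring library codes were added after the data were seen.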

Additional observations from a re-analysis of the deposited data

Results flagged for a closer look

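Single libraries that stood apart were looked for in the 18 groups of 10 libraries, gene by gene, by comparing the gap between the highest or lowest library and its nearest neighbour with the range of the group. Of 180 such groups of values, 16 held a library past Dixon's 95% limit. The rate of about 1 in 20 that this limit implies holds for independent, normally distributed values. The same libraries recur across members, so the 16 were not compared with that rate. The values are TMM-normalised CPM, and the reason for any of them was not tested.

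Replicate 7 of PBS.AIR parenchyma accounted for 6 of the 16. It was the highest library of its group for Gpnmb at 89.63 CPM (others 27.32 to 41.76), Ctsk at 154.1 CPM (others 57.09 to 86.42) and Trem2 at 17.57 CPM (others 3.972 to 7.258). It was also the highest for Msr1 at 20.72 CPM, Spp1 at 223.8 CPM and Cd68 at 82.38 CPM. In 3-week HDM airway, replicate 4 was the lowest library for Ctsk at 110 CPM (others 235.9 to 534.1), Trem2 at 15.23 CPM and Atp6v0d2 at 29.94 CPM. Among the smoke groups of parenchyma, replicate 5 of PBS.CS was the lowest for Gpnmb (237 CPM) and Ctsk (388.9 CPM), replicate 8 of PBS.CS for Mmp12 (239 CPM), and replicate 9 of PBS.CS.DEX for Ctsk (234.4 CPM). The other 3 were Mmp12 at 47.84 CPM in replicate 6 of PBS.AIR.DEX parenchyma (others 21.58 to 31), Spp1 at 1135 CPM in replicate 8 of HDM.CS.DEX parenchyma and Lpl at 258.8 CPM in replicate 3 of HDM.CS.DEX airway.

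Differences between effects were tested for each of the 10 members in 11 comparisons, and 46 of 110 passed an adjusted p of 0.05 in limma. They are given as differences of log2FC values. The HDM effect in mice with smoke was set against the HDM effect in mice without smoke. In parenchyma the differences between these effects were −4.174 for Mmp12, −3.154 for Msr1, −2.91 for Trem2, −2.779 for Spp1 and −2.765 for Ctsk. For the others they were −2.726 for Gpnmb, −2.138 for Cd68, −1.582 for Atp6v0d2, −1.471 for Marco and −1.049 for Lpl. In airway they were −3.248 for Mmp12, −2.375 for Spp1, −2.298 for Gpnmb, −2.027 for Trem2, −1.991 for Msr1, −1.56 for Ctsk, −1.417 for Cd68 and −1.319 for Atp6v0d2.

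For the smoke effect with against without dexamethasone, they were −2.522 for Gpnmb, −2.268 for Ctsk, −1.815 for Atp6v0d2, −1.576 for Cd68, −1.388 for Trem2 and −1.015 for Msr1 in parenchyma. In airway they were −2.066 for Gpnmb, −1.466 for Atp6v0d2 and −1.209 for Ctsk. The HDM effect under the drug differed in parenchyma by −1.657 for Ctsk, −1.57 for Gpnmb, −1.299 for Msr1, −1.087 for Trem2 and −0.923 for Cd68, and in airway by −1.139 for Gpnmb.

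Between 11 and 3 weeks, the HDM effect in airway differed by 1.491 for Gpnmb, 1.292 for Trem2, 1.075 for Mmp12, 0.935 for Ctsk and 0.649 for Cd68. Between airway and parenchyma, the HDM effect at 3 weeks differed by −1.198 for Marco, −1.03 for Ctsk, −0.862 for Trem2, −0.851 for Lpl and −0.781 for Msr1. At 11 weeks it differed by −0.934 for Lpl and 0.78 for Atp6v0d2, and the smoke effect by −1.246 for Ctsk.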

How the results depend on the processing

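Of 278 counts of members called under other ways of processing, 254 stayed within 1.5 times the reported count, as did 38 of 43 with 1 library left out. Single members kept their call, or its absence, in 2718 of 2780 cases, and in 416 of 430 with a library left out. A change of direction in a member that was not called counted as no change. None that was called turned its direction. The cause of the changes below was not tested.

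With edgeR and with DESeq2, the members called went from 1 to 0 for smoke added to HDM in airway and for airway against parenchyma in 3-week PBS mice, from 5 to 3 for HDM by week in airway, from 2 to 1 for HDM by tissue at 11 weeks, and from 1 to 2 for smoke by tissue. With no filter on low counts they went to 0 for HDM by dexamethasone in airway and for the tissues in 3-week PBS mice, to 3 for HDM by week in airway and to 1 for HDM by tissue at 11 weeks. With sample quality weights they went to 0 for dexamethasone in HDM.CS airway and for the tissues in 3-week PBS mice, to 3 for HDM by week in airway, to 1 (from 0) for HDM by week in parenchyma and to 1 for HDM by tissue at 11 weeks. With all libraries in one fit they went to 0 for HDM by dexamethasone in airway, to 2 (from 1) for the tissues in PBS.AIR mice and to 1 for HDM by tissue at 11 weeks. The tissues in 3-week PBS mice also went to 0 with DESeq2 size factors and with the stricter filter on low counts (CPM of 10). Single libraries left out gave 3 for HDM by week in airway (without replicate 4 of 3-week HDM airway), 1 for HDM by tissue at 11 weeks (without replicate 7 of PBS.AIR parenchyma), and 2 to 3 for smoke by tissue (without replicate 8 or 5 of PBS.CS parenchyma or replicate 7 of PBS.AIR parenchyma).

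The library codes in the sample titles put an airway and a parenchyma library of 1 group next to each other, without saying what such neighbours share. Each airway library was correlated with the parenchyma libraries of its group, in deviations from the group means over genes. As a hint that neighbours are paired, the neighbour was the best match in 64 of 80 cases at 11 weeks and 13 of 21 at 3 weeks. Over all neighbour pairs, r was over 0.1 in 73 of 80 at 11 weeks (median 0.29). At 3 weeks it was over 0.1 in 15 of 21 (median 0.183, lowest −0.217). With the neighbours as a replicate block, added after the data were seen, smoke by tissue went from 1 to 5 members, all with a smaller log2FC in airway (Ctsk, Msr1, Cd68, Lpl and Marco, limma adjusted p up to 0.0469). Cd68 was added for HDM by tissue at 3 weeks (adjusted p = 0.0468) and Gpnmb at 11 weeks (0.035), and no other call in the 6 comparisons of the tissues changed. The smoke, HDM, combined and drug-alone effects share the PBS.AIR libraries, so a library that stands apart there touches all of them. The lowest count of any member in any library was 69. Adipocyte and cardiac muscle RNA differed between airway libraries, and the files give no cell counts.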
